A study of Mus musculus with 15 samples.

Results

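The genes described here are 10 members of the NF-kB system: the subunit genes Nfkb1, Nfkb2, Rela and Relb, the inhibitor genes Nfkbia and Nfkbie, and the feedback genes Tnfaip3, Birc3, Traf1 and Tnip1. They were taken by gene symbol, and all 10 were found in both deposited tables, among 54343 entries for MC38 and 55303 for B16-F10. The study sequenced mRNA in 15 libraries from 2 mouse cancer cell lines after raising or disrupting Ssbp4, a gene of the single-stranded DNA binding protein family. In MC38, a colon adenocarcinoma line that the labels list as melanoma, 3 libraries came from cells stably transduced with the retroviral vector pMSCV-IRES-EGFP carrying mouse Ssbp4 (OE), and 4 from wild-type cells (WT). The labels name no cells with an empty vector, so the MC38 comparison holds the vector and EGFP as well as Ssbp4, and any other difference between the cells. In B16-F10, a melanoma line, 4 libraries came from cells electroporated with Cas9 and a mixture of guide RNAs against Ssbp4 (KO), and 4 from cells that received Cas9 with a control guide directed at an intergenic site (WT). All cells were grown in the same serum-containing medium, and no cytokine or other stimulus is named. The labels do not state whether replicate libraries are separate cultures, and every p-value below therefore reflects only variation among libraries, possibly technical.

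NF-kB is a family of dimeric transcription factors that inhibitor proteins of the IkB class hold in the cytoplasm of resting cells. In the canonical branch the IKK complex marks the inhibitors for destruction and dimers of RelA with p50, the product of Nfkb1, enter the nucleus. In the non-canonical branch the kinase NIK triggers processing of p100, the product of Nfkb2, to p52, which pairs with RelB. Several targets of NF-kB are its own brakes, among them IkB-alpha (Nfkbia), IkB-epsilon (Nfkbie) and the ubiquitin-editing enzyme A20 (Tnfaip3), so mRNA of these genes is widely used as a readout of the pathway. The values here are mRNA levels, and neither nuclear protein nor IkB turnover was measured.

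Ssbp4 mRNA changed in the direction of the labels. It had 462 to 581 FPKM in OE and 13.2 to 17.6 FPKM in WT libraries of MC38. In B16-F10 it had 19.0 to 24.3 FPKM in KO and 32.4 to 37.4 FPKM in WT libraries. The KO libraries thus kept Ssbp4 mRNA, and these values do not show how much Ssbp4 protein was lost. FPKM counts sequenced fragments scaled by gene length in kilobases and by library depth in M fragments. Estimated depth was 32.6 to 48.8 M fragments per library. Melanocyte markers summed to 0.934 to 1.44 FPKM in OE and 1.30 to 2.11 FPKM in WT libraries of MC38, and to 13645 to 14154 FPKM in KO and 10982 to 14075 FPKM in WT libraries of B16-F10, where Tyrp1 was the most abundant. Epithelial markers moved with the MC38 groups, summing to 8.94 to 10.7 FPKM in OE and 6.60 to 8.85 FPKM in WT libraries. Krt8 rose, with 8.65 to 10.7 FPKM in OE and 2.74 to 3.74 FPKM in WT libraries, while its keratin partner Krt18 fell to 0 to 0.162 FPKM in OE, against 2.64 to 3.54 FPKM in WT libraries. Epcam was listed at 0 in every OE library and had 0.658 to 1.05 FPKM in WT libraries, and Krt18 met the filter on low values only through the WT libraries. The labels do not say whether OE and WT cells are of 1 subline, so Ssbp4, the vector and any difference between sublines cannot be told apart in any MC38 value below. The 8 leukocyte markers summed to 3.64 to 4.38 FPKM in OE and 2.24 to 3.04 FPKM in WT libraries of MC38, most of it Cd68, which rose. Ptprc, the pan-leukocyte marker, was at most 0.0187 FPKM in any MC38 library and listed at 0 in every B16-F10 library. Endothelial markers, led by Egfl7, summed to 2.94 to 3.63 FPKM in OE and 4.33 to 5.72 FPKM in WT libraries of MC38, and to 15.7 to 17.5 FPKM in KO and 11.3 to 16.02 FPKM in WT libraries of B16-F10. In B16-F10 the leukocyte sum was 2.34 to 4.05 FPKM in KO and 1.86 to 3.13 FPKM in WT libraries. On the first principal component of B16-F10, with 42.8% of the variance, WT libraries 3 and 4 both stood at -17.8, WT libraries 1 and 2 at 9.42 and 10.3, and KO libraries between 1.91 and 7.81.

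The first comparison set OE against WT in MC38. The feedback genes Tnfaip3 and Birc3 and the inhibitor genes Nfkbie and Nfkbia rose, as did the subunit gene Nfkb2, whereas Nfkb1 and Rela fell slightly. The largest change was that of Tnfaip3, which averaged 2.93 ± 0.0521 FPKM in OE and 1.49 ± 0.0652 FPKM in WT (SD, n = 3 and 4), a ratio of means of 1.96. In all, 7 of the 10 members passed an adjusted p of 0.05 in limma, 5 higher and 2 lower, where 47.5% of all 10748 tested genes passed, 23.9% higher and 23.6% lower. The groups did not overlap for 6 of 10 members, a share near the 50.6% found for all tested genes. The median log2 fold change over the 10 members was 0.18, beside -0.0088 over all tested genes. All fold changes are on the scale of log2(FPKM + 1), which understates the change of low genes.

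**Figure D1:**
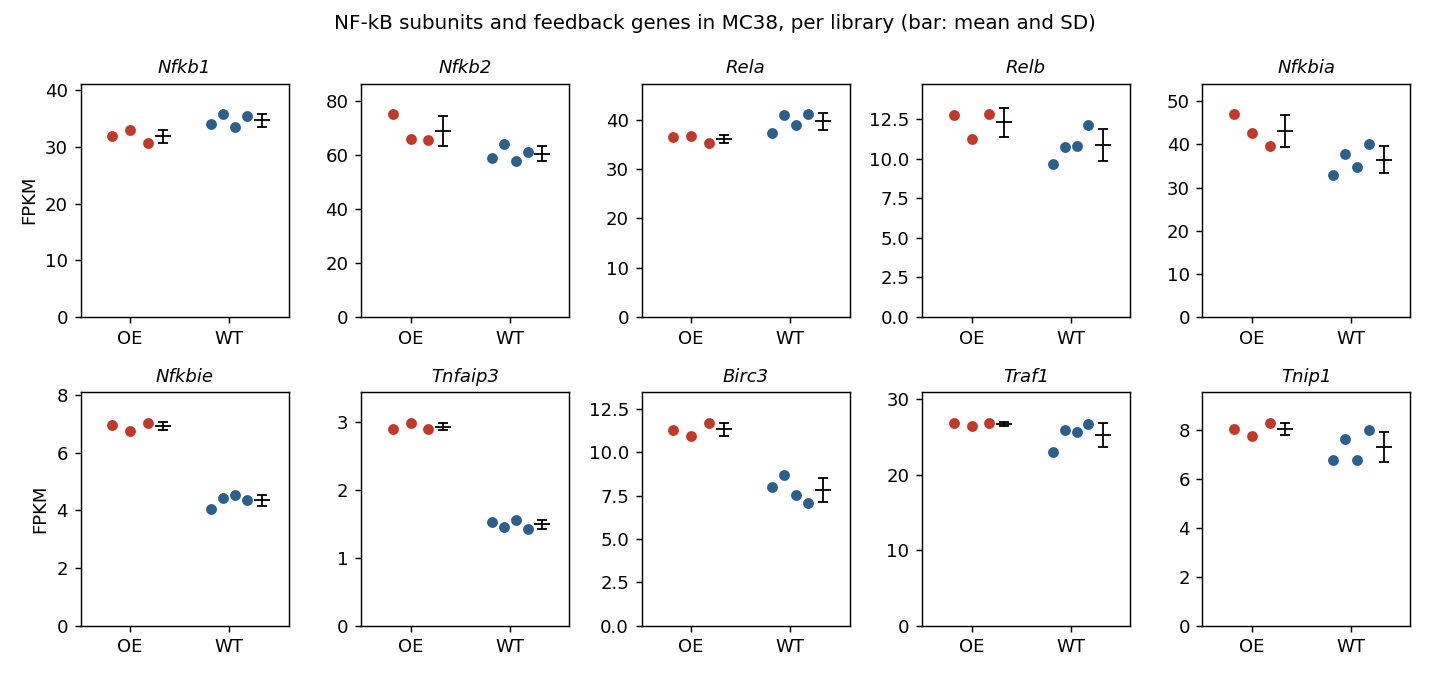
FPKM of each member in each MC38 library, with OE (red, n = 3) left of WT (blue, n = 4) and the mean and SD as a black bar; every axis starts at 0. The OE points of Nfkbie, Tnfaip3 and Birc3 lie well above all WT points, while Relb, Nfkbia, Traf1 and Tnip1 overlap.

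Tnfaip3 encodes A20, which removes and rebuilds ubiquitin chains on signalling proteins upstream of IKK. Its level was 2.91, 2.99 and 2.90 FPKM in the OE libraries, against 1.53, 1.46, 1.56 and 1.42 FPKM in the WT libraries. Every OE library was thus above every WT library, and the gap was many times the spread within either group. The log2 fold change was 0.66 (SE 0.064, limma adjusted p = 2.08e-05). Tnip1, whose product ABIN-1 binds A20 and helps it find ubiquitin chains, did not pass. It stood at 8.07, 7.79 and 8.31 FPKM in OE libraries, against 6.81, 7.64, 6.81 and 8.02 FPKM in WT libraries. WT library 4 lay within the OE range, and the log2 fold change of 0.13 had a 95% interval of -0.020 to 0.27 (adjusted p = 0.141, limma).

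Birc3 encodes cIAP2, a ubiquitin ligase recruited by TRAF proteins to TNF receptors. It had 11.3, 10.96 and 11.7 FPKM in OE libraries, against 7.98, 8.66, 7.53 and 7.09 FPKM in WT libraries, with no overlap. The log2 fold change was 0.49 (SE 0.065, limma adjusted p = 1.76e-04). Reads may be shared with its close paralog Birc2, which was chosen after its values were seen and averaged 11.5 FPKM in OE and 10.2 FPKM in WT (adjusted p = 0.0892, limma). Traf1, an adaptor that pairs with TRAF2 at those receptors, was abundant in MC38 and did not pass. It had 26.8, 26.4 and 26.8 FPKM in OE libraries, against 23.0, 25.9, 25.6 and 26.6 FPKM in WT libraries, where library 1 was lowest. Its log2 fold change of 0.076 had a 95% interval of -0.036 to 0.19 (adjusted p = 0.239, limma).

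Of the inhibitors, Nfkbie moved further than Nfkbia. Nfkbie stood at 6.96, 6.77 and 7.04 FPKM in OE libraries, against 4.06, 4.44, 4.52 and 4.37 FPKM in WT libraries. The groups were clearly apart, with a log2 fold change of 0.57 (SE 0.056, limma adjusted p = 2.24e-05). Nfkbia was the more abundant inhibitor, with 47.0, 42.6 and 39.6 FPKM in OE libraries, against 32.96, 37.8, 34.9 and 40.1 FPKM in WT libraries. Here WT library 4 lay above OE library 3. Its log2 fold change was 0.24 (SE 0.072, limma adjusted p = 0.0213). Nfkbia did not pass without OE library 1 (adjusted p = 0.0897, limma) or without WT library 3 (adjusted p = 0.0527, limma).

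The 4 subunit genes split. Nfkb2, the precursor of p52, had 75.3, 65.9 and 65.8 FPKM in OE libraries, against 58.9, 64.1, 57.9 and 61.3 FPKM in WT libraries. OE library 1 was highest, and the other OE libraries lay just above WT library 2. The log2 fold change was 0.18 (SE 0.055, limma adjusted p = 0.0184), and the call was lost without OE library 1 (adjusted p = 0.0744, limma). Relb, whose product pairs with p52, had 12.8, 11.3 and 12.8 FPKM in OE libraries, against 9.66, 10.8, 10.8 and 12.2 FPKM in WT libraries. The groups overlapped, and the log2 fold change of 0.17 (95% interval 0.0027 to 0.33) did not pass (adjusted p = 0.0874, limma). It passed after rescaling every library to 1 common total (adjusted p = 0.0416, limma), without OE library 2 (adjusted p = 0.0477) and without WT library 4 (adjusted p = 0.0279).

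Rela, the gene of the main activating subunit p65, had 36.6, 36.7 and 35.2 FPKM in OE libraries, against 37.4, 41.1, 39.0 and 41.2 FPKM in WT libraries. Nfkb1, the precursor of p50, had 31.9, 33.004 and 30.7 FPKM in OE libraries, against 34.0, 35.8, 33.5 and 35.5 FPKM in WT libraries. Both groups were just apart for either gene, by less than the range within WT. The log2 fold changes were -0.13 (SE 0.042, limma adjusted p = 0.0297) for Rela and -0.12 (SE 0.041, limma adjusted p = 0.0345) for Nfkb1. Neither passed with column totals made equal, with adjusted p = 0.0645 for Rela and 0.0979 for Nfkb1 in limma. Rela did not pass without any 1 of 5 libraries, OE libraries 1, 2 and 3 and WT libraries 2 and 4 (adjusted p = 0.0562 to 0.108). Nfkb1 did not pass without OE library 1 or 3 or WT library 2 or 4 (adjusted p = 0.0719 to 0.139).

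By contrast, Tnfaip3, Nfkbie and Birc3 passed whichever of the 7 libraries was left out, with adjusted p of at most 2.08e-04, 2.41e-04 and 0.00138 in limma. Without OE library 1 they were the only members called. The same 3 members were the ones that passed with no filter on low values.

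Promoter sequences are shown because kappaB motifs are the DNA elements that NF-kB dimers bind, and because the members that rose most can be compared with those that did not. Promoter windows were taken from RefSeq for GRCm38.p6, an earlier assembly than the GRCm39 named in the submitters' processing notes, and no expression value depends on these coordinates. Each window runs from 250 bases before to 50 bases after the most upstream listed start, read 5′ to 3′ on the strand of the gene. A window was found for 8 of the 10 members, namely Nfkb2, Rela, Nfkbia, Nfkbie, Tnfaip3, Birc3, Traf1 and Tnip1. Capitals mark bases within any match to the kappaB consensus on either strand, and overlapping matches run together. The windows of the 5 members that rose in MC38 are Tnfaip3 at chr10:19015361-19015660 (minus strand), Nfkbie at chr17:45555450-45555749 (plus strand), Birc3 at chr9:7873121-7873420 (minus strand), Nfkbia at chr12:55492598-55492897 (minus strand) and Nfkb2 at chr19:46304487-46304786 (plus strand).
Tnfaip3: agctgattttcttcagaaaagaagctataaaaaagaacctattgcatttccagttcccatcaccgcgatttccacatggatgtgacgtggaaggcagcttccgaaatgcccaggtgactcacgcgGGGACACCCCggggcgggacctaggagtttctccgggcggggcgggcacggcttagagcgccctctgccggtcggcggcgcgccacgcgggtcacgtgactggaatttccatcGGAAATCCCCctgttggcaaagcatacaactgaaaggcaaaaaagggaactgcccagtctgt
Nfkbie: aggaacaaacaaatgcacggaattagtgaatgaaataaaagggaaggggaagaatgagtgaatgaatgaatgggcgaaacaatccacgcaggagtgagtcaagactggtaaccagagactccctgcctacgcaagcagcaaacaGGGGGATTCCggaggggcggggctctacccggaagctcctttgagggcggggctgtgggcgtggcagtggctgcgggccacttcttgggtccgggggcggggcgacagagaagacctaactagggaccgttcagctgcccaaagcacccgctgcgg
Birc3: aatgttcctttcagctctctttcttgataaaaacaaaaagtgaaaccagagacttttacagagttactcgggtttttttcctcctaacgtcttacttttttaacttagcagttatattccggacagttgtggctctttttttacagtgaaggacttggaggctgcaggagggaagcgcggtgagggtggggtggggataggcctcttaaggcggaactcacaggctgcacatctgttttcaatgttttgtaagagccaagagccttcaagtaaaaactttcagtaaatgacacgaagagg
Nfkbia: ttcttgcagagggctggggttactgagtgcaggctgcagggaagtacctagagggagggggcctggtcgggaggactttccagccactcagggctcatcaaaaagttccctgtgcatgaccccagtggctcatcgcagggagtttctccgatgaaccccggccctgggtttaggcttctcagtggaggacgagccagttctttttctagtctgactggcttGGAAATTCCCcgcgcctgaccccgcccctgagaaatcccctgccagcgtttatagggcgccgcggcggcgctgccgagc
Nfkb2: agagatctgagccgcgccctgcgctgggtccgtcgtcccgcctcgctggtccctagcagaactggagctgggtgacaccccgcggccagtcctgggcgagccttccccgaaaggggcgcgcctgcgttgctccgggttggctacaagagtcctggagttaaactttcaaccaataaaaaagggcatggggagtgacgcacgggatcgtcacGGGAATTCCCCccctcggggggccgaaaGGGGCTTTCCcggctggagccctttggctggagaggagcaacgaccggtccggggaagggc
The windows of Tnip1 at chr11:54962891-54963190 (minus strand), which did not pass, and of Rela at chr19:5637291-5637590 (plus strand), which fell, are given beside them.
Tnip1: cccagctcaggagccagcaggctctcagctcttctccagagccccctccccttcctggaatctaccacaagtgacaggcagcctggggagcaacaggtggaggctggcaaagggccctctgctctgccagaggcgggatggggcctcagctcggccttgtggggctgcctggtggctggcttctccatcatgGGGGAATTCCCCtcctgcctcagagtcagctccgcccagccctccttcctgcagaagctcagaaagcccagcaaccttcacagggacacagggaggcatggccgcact
Rela: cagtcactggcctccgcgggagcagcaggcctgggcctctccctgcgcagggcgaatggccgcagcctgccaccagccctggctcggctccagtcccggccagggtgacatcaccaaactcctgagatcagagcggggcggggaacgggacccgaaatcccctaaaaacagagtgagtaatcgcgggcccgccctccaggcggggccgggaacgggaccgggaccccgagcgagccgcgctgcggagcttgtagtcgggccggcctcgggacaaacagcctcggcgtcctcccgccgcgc

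Matches to the kappaB consensus were found in 5 of the 8 windows, those of Tnfaip3, Nfkbie, Nfkbia, Nfkb2 and Tnip1. Over all 27025 genes with a window, 8.19% had a match. The members were chosen as NF-kB genes, several of them known targets, so this share is given as background and is no test. The same 5 windows held the spelled motif GGGNNNTTCC on either strand, which 5.54% of all windows held and which overlaps the consensus. In Nfkbia the match is GGGAATTTCC on the opposite strand, at positions -29 to -20 counted from the start. In Tnfaip3 a match, GGGGATTTCC on the opposite strand, lies at -12 to -3. In Nfkbie the match is GGGGGATTCC on the gene's strand, at -106 to -97. Tnip1 and Nfkb2 both hold the palindrome GGGAATTCCC, and Nfkb2 also holds GGGGCTTTCC at -11 to -2. Of the members with a match, Tnfaip3, Nfkbie, Nfkbia and Nfkb2 rose in MC38. Tnip1, whose overlapping matches all lie within the same 12 bases, did not pass. Of those with no match, Birc3 rose, Rela fell, and Traf1, whose window is not shown, did not pass. With 8 windows, a relation between a match and the change was not tested. No match in these windows leaves out sites farther from the start.

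The second comparison set KO against WT in B16-F10. Of the 10 members 7 had a mean of at least 1 FPKM and were tested, and 1 passed, Nfkb1, which rose. Over all 10902 tested genes 2.23% passed in limma, 1.33% higher and 0.899% lower. Higher calls made up 59.7% of these, or 73.1% with libraries rescaled to a common total and 42.9% with median-of-ratios scaling. The groups did not overlap for 1 of the 7 tested members, again Nfkb1, and for 13.9% of all tested genes, 8.53% higher and 5.32% lower. For the other 6 tested members the groups overlapped.

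**Figure D2:**
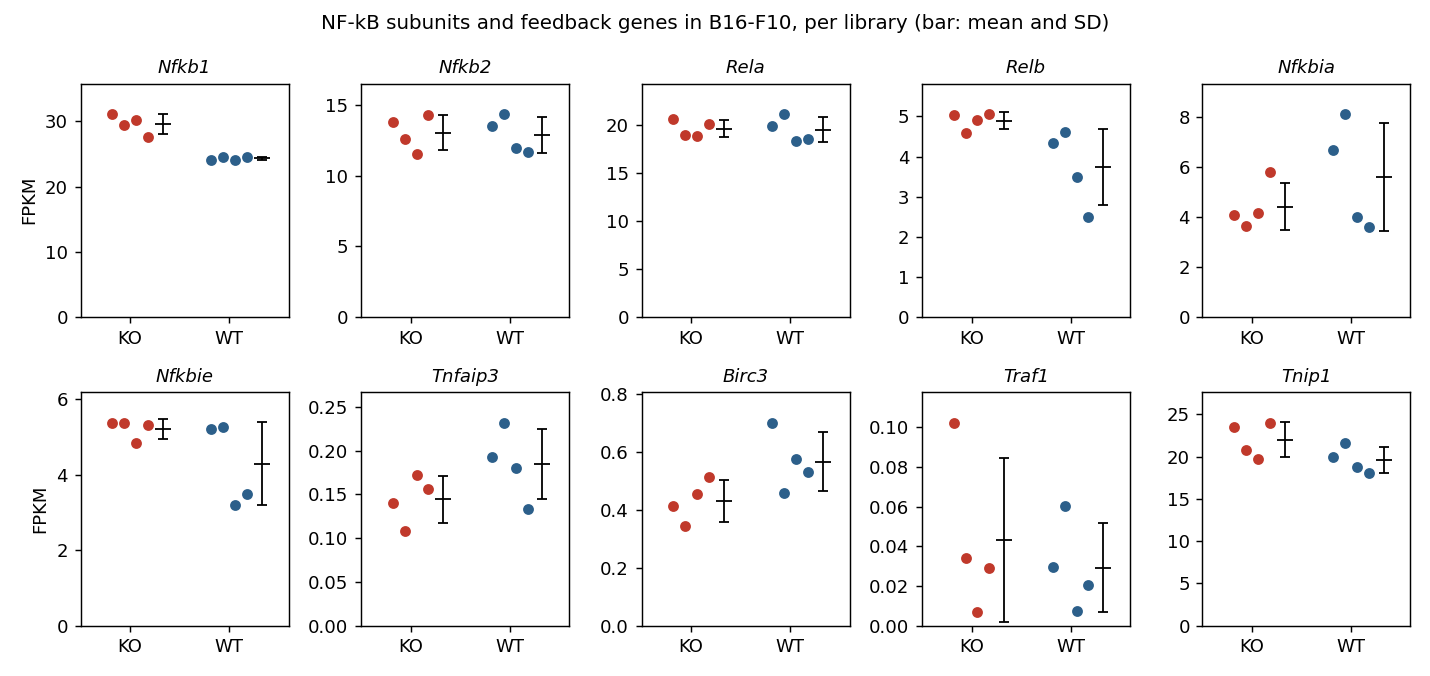
FPKM of each member in each B16-F10 library, with KO (red, n = 4) left of WT (blue, n = 4) and the mean and SD as a black bar; every axis starts at 0. The KO points of Nfkb1 lie above all WT points, WT points of Relb, Nfkbia and Nfkbie are widely spread, and Tnfaip3, Birc3 and Traf1 stay under 1 FPKM.

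Nfkb1 had 31.1, 29.5, 30.2 and 27.6 FPKM in KO libraries, against 24.1, 24.5, 24.1 and 24.5 FPKM in WT libraries. All KO libraries were above all WT libraries, and the WT libraries were nearly level. Their coefficient of variation was 0.906%, and 0.321% of tested genes had a smaller one in that group. Nfkb1 averaged 29.6 ± 1.49 FPKM in KO and 24.3 ± 0.22 FPKM in WT (SD, n = 4 each), a log2 fold change of 0.27 (SE 0.047, limma adjusted p = 0.0307). Leaving out KO library 4, the lowest KO library, gave adjusted p = 0.0148, and leaving out any 1 of the other 7 libraries gave adjusted p = 0.0520 to 0.132 in limma, so the call was lost. The log2 fold change stayed between 0.25 and 0.30 over these 8 fits. The number of called genes over the whole line also fell to between 23 and 119 without any 1 of those 7 libraries, and was 414 without KO library 4.

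The other subunit genes did not pass. Rela had 20.6, 18.9, 18.8 and 20.1 FPKM in KO libraries, against 19.9, 21.1, 18.3 and 18.6 FPKM in WT libraries. Its 95% interval for the log2 fold change was -0.12 to 0.14. Nfkb2 had 13.8, 12.6, 11.5 and 14.3 FPKM in KO libraries, against 13.5, 14.3, 11.9 and 11.6 FPKM in WT libraries, with an interval of -0.17 to 0.21. For these genes the ranges of the groups largely coincided. Relb had 5.03, 4.60, 4.90 and 5.06 FPKM in KO libraries, against 4.34, 4.61, 3.48 and 2.50 FPKM in WT libraries. KO libraries were close together, WT libraries 3 and 4 were low, and the groups overlapped only in that KO library 2 lay just below WT library 2. The log2 fold change was 0.34 (95% interval 0.042 to 0.64, limma adjusted p = 0.186).

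The inhibitor genes varied with the same WT libraries. Nfkbia had 4.09, 3.65, 4.14 and 5.79 FPKM in KO libraries, against 6.69, 8.12, 3.98 and 3.61 FPKM in WT libraries. Nfkbie had 5.36, 5.38, 4.83 and 5.31 FPKM in KO libraries, against 5.21, 5.27, 3.19 and 3.50 FPKM in WT libraries. In both genes WT libraries 1 and 2 were high and 3 and 4 low, the split seen on the first principal component. For Nfkbia 3 of the 4 KO libraries were near the low WT libraries, and for Nfkbie all KO libraries were nearer the high ones. The coefficient of variation within WT was 38.7% for Nfkbia, 25.7% for Nfkbie and 25.5% for Relb, where the median over all tested genes was 8.52%. Log2 fold changes were -0.24 for Nfkbia (95% interval -0.73 to 0.25, limma adjusted p = 0.567) and 0.26 for Nfkbie (95% interval -0.041 to 0.55, limma adjusted p = 0.303). The part of this WT split in the comparison was not tested.

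Of the feedback genes only Tnip1 was measured above the filter in B16-F10. It had 23.5, 20.8, 19.7 and 24.0 FPKM in KO libraries, against 19.9, 21.6, 18.7 and 18.1 FPKM in WT libraries, with a log2 fold change of 0.16 (95% interval -0.012 to 0.33, limma adjusted p = 0.268). Tnfaip3 had 0.141, 0.108, 0.172 and 0.156 FPKM in KO libraries, against 0.193, 0.232, 0.181 and 0.134 FPKM in WT libraries. Birc3 had 0.414, 0.343, 0.453 and 0.513 FPKM in KO libraries, against 0.700, 0.457, 0.576 and 0.529 FPKM in WT libraries. Ranges overlapped for both genes, and 3 of the 4 KO libraries were below all WT libraries for Birc3. Traf1 lay at 0.0068 to 0.102 FPKM in KO and 0.0072 to 0.0601 FPKM in WT libraries, close to the value of 1 fragment, which is 0.0205 to 0.0307 FPKM in a gene of 1 kb. Two-sided exact permutation tests gave p = 0.171 for Tnfaip3, 0.0571 for Birc3 and 0.657 for Traf1, where the smallest p these 4 against 4 libraries allow is 0.0286.

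**Figure D3:**
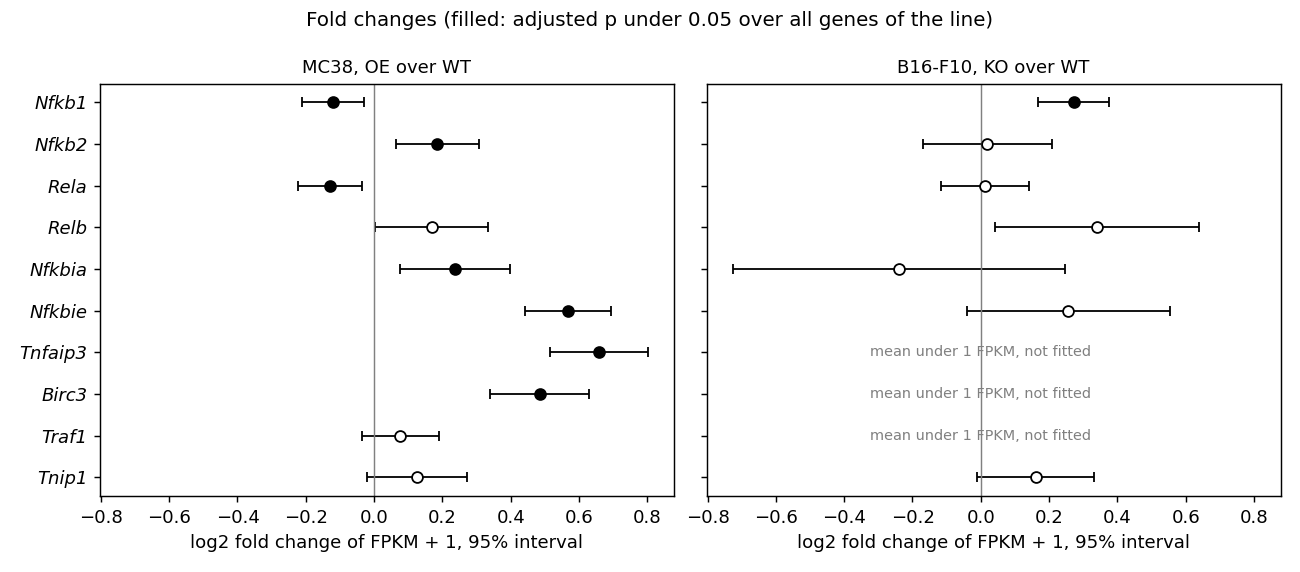
Log2 fold change of FPKM + 1 for each member, with 95% intervals, for OE over WT in MC38 (left) and KO over WT in B16-F10 (right); filled points passed an adjusted p of 0.05 over all genes of the line. Tnfaip3, Nfkbie and Birc3 stand highest in MC38 at 0.66, 0.57 and 0.49, and in B16-F10 the only filled point is Nfkb1 at 0.27.

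Set side by side, Nfkb1 had a log2 fold change of -0.12 for OE over WT in MC38 and of 0.27 for KO over WT in B16-F10. Neither call was stable. With 1 library left out in turn, it was lost in 4 of 7 fits in MC38 and in 7 of 8 fits in B16-F10. The log2 fold change of Nfkbie was 0.57 in MC38 and 0.26 in B16-F10, where it did not pass, and that of Relb, which passed in neither line, was 0.17 in MC38 and 0.34 in B16-F10. The tables of the lines were deposited separately, so the difference between lines was not tested. The lines also differed in their resting levels, which are given without a test for the same reason. In WT MC38 the order was Nfkb2 (60.5 FPKM), Rela (39.6), Nfkbia (36.4), Nfkb1 (34.7), Traf1 (25.3), Relb (10.9), Birc3 (7.81), Tnip1 (7.32), Nfkbie (4.35) and Tnfaip3 (1.49). In WT B16-F10 it was Nfkb1 (24.3 FPKM), Tnip1 (19.6), Rela (19.5), Nfkb2 (12.9), Nfkbia (5.60), Nfkbie (4.29), Relb (3.73), Birc3 (0.565), Tnfaip3 (0.185) and Traf1 (0.0293). In MC38 the ranges of Rela and Nfkbia, of Nfkbia and Nfkb1, and of Birc3 and Tnip1 overlapped within WT. In B16-F10 those of Tnip1 and Rela, of Nfkbia and Nfkbie, of Nfkbie and Relb, and of Nfkbia and Relb did.

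Ratios of members within a library do not depend on how libraries are scaled, and 3 were computed after the values were seen, so they are given as a description. The Nfkb2 to Nfkb1 ratio, non-canonical over canonical precursor, was 2.36, 2.00 and 2.14 in OE libraries, against 1.73, 1.79, 1.73 and 1.72 in WT libraries of MC38. The Relb to Rela ratio was 0.350, 0.308 and 0.364 in OE libraries, against 0.258, 0.262, 0.278 and 0.295 in WT libraries. Both ratios were higher in every OE library, as was the Nfkbia to Rela ratio, which averaged 1.19 ± 0.0854 in OE and 0.917 ± 0.0407 in WT (SD, n = 3 and 4). Non-overlap was common in MC38: 48.0% of all tested genes set over Nfkb1, and 47.9% set over Rela, also had groups that did not overlap.

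In B16-F10 the Relb to Rela ratio was 0.244, 0.243, 0.260 and 0.251 in KO libraries, against 0.218, 0.218, 0.190 and 0.135 in WT libraries. Every KO library lay above every WT library, where 9.49% of all tested genes set over Rela had groups that did not overlap. The lowest ratios were those of WT libraries 3 and 4, which stood apart on the first principal component. The Nfkb2 to Nfkb1 ratio was 0.444, 0.426, 0.382 and 0.517 in KO libraries, against 0.561, 0.586, 0.494 and 0.475 in WT libraries. KO library 4 overlapped WT libraries 3 and 4 here, and 47.1% of all tested genes set over Nfkb1 had groups that did not overlap. The Nfkbia to Rela ratio overlapped as well, at 0.193 to 0.288 in KO and 0.194 to 0.384 in WT libraries.

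**Figure D4:**
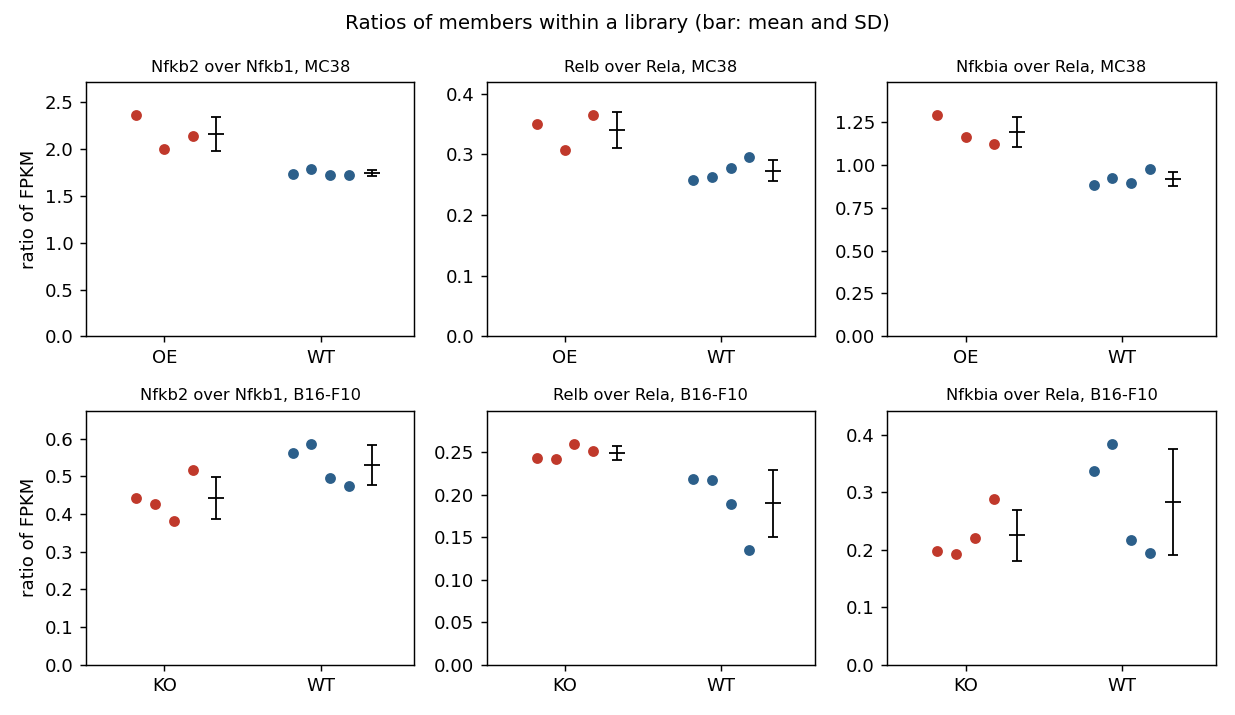
Ratios of FPKM of 2 members within each library, with OE or KO (red) left of WT (blue), mean and SD as a black bar, and axes from 0. The Relb to Rela ratio is higher in every OE and every KO library than in the WT libraries of its own line, whereas the Nfkbia to Rela ratio is higher in OE and overlaps in KO.

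Other genes of the pathway were counted in 5 lists, grouped by role. The lists were chosen with earlier results of these data known, so their shares are a description and no test. In MC38 the further Rel and IkB genes had 4 of 8 tested members lower (50.0%) and 0 higher, with a median log2 fold change of -0.12. Beside this, 23.6% of all tested genes were lower and 23.9% higher. The share called in either direction, 50.0%, was near the 47.5% of all tested genes. Nfkbib, which encodes IkB-beta, fell to 16.5 ± 1.12 FPKM in OE, against 21.6 ± 2.94 FPKM in WT, and the nuclear IkB gene Nfkbid fell to 2.48 ± 0.4 FPKM in OE, against 3.42 ± 0.446 FPKM in WT (SD, n = 3 and 4; limma adjusted p = 0.00948 and 0.0163). Commd1, whose product promotes RelA turnover, and Nkrf, a repressor that binds NF-kB elements, also fell (log2 fold changes -0.28 and -0.17). Thus Nfkbib had lower and Nfkbia and Nfkbie had higher mRNA in the same OE libraries. Of the receptors and adaptors 12 of 28 tested members rose (42.9%) and 4 fell (14.3%), with a median of 0.019. Of all tested genes 23.9% rose and 23.6% fell. The 12 that rose include Tnfrsf9, Il1r1 and Irak2, which met the filter only through the OE libraries. Their calls are no support for the list. The adaptor Traf5 stood at 4.89 ± 0.736 FPKM in OE, against 1.79 ± 0.158 FPKM in WT, and Tnfrsf9, the receptor 4-1BB, at 2.51 ± 0.412 FPKM in OE, against 0.747 ± 0.304 FPKM in WT (log2 fold changes 1.07 and 1.01). The falls were led by Tab2, an adaptor of the TAK1 kinase (-0.41), and by Tnfrsf12a, the TWEAK receptor (-0.35).

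Among genes of IKK, NIK and the ubiquitin machinery 6 of 27 tested members rose (22.2%) and 4 fell (14.8%) in MC38, with a median of -0.025. Their called share was 37.0%, where 47.5% of all tested genes were called. Map3k14, which encodes NIK, stood at 9.07 ± 0.465 FPKM in OE, against 7.52 ± 0.46 FPKM in WT (log2 fold change 0.24, limma adjusted p = 0.00754). Ikbke, which encodes the kinase IKK-epsilon, stood at 1.42 ± 0.209 FPKM in OE, against 1.04 ± 0.0895 FPKM in WT (0.25). Ikbke lies near the filter, where the log2(FPKM + 1) scale understates the change. Rbck1, the HOIL-1 subunit of the linear ubiquitin ligase, fell to 34.1 ± 1.19 FPKM in OE, against 53.4 ± 4.68 FPKM in WT (-0.63), and its partner conjugating enzyme Ube2l3 fell by 0.32 on the log2 scale. Of 35 listed target genes outside the members 15 were under the filter, 5 of them listed at 0 in every MC38 library. Of the 20 tested 12 rose (60.0%) and 2 fell (10.0%), with a median of 0.23, where 23.9% of all tested genes rose and 23.6% fell. This list too was chosen with earlier results known, so the shares are no test. The chemokine Ccl5 stood at 9.40 ± 0.452 FPKM in OE, against 1.95 ± 0.311 FPKM in WT, and Ccl2 at 49.0 ± 2.66 FPKM in OE, against 18.3 ± 1.33 FPKM in WT (log2 fold changes 1.82 and 1.38). Bcl2l1, an anti-apoptotic gene, and Fth1, the ferritin heavy chain, fell (-0.37 and -0.32), although the groups overlapped for Fth1. Several of the targets also respond to interferon. Of 12 ligand genes 10 were under the filter, 6 of them listed at 0 in every MC38 library, and the 2 tested, Il33 (1.08) and Tnfsf12, the gene of TWEAK (0.65), both rose. Il33 and, among the receptors and adaptors that rose, Tnfrsf9, Il1r1 and Irak2 had WT means under 1 FPKM and met the filter only through the OE libraries, so their calls are no support for a list.

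In B16-F10 none of the tested genes of these 5 lists passed in limma, of 8 further Rel and IkB genes, 23 receptors and adaptors, 25 IKK, NIK and ubiquitin genes, 14 targets and 2 ligands. List medians lay between -0.022 and 0.032, beside 0.024 over all tested genes. The most abundant receptor gene, Tnfrsf12a, had 52.7 ± 3.40 FPKM in KO and 41.9 ± 20.1 FPKM in WT (SD, n = 4 each; limma adjusted p = 0.412). Tnfrsf1a, which encodes the main TNF receptor, had 45.9 ± 2.30 FPKM in KO and 40.1 ± 2.05 FPKM in WT without overlap (adjusted p = 0.0885, limma). In its list of 23 tested genes the groups did not overlap for 2 higher and 2 lower genes, and over all tested genes for 13.9%. Commd1 and Nkiras2 were the most abundant further Rel and IkB genes, Skp1 and Ube2v1 the most abundant ubiquitin genes, Fth1 and Cd44 the most abundant targets, and Il33 and Il18 the most abundant ligands (adjusted p = 0.109 to 0.788, limma). Of these only Ube2v1 had groups that did not overlap, and it was lower in KO. Of the chemokine targets that led in MC38, Ccl2 was listed at 0 in every B16-F10 library, and Ccl5 had 0.218 to 0.432 FPKM in KO and 0.23 to 0.806 FPKM in WT libraries, under the filter.

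**Figure D5:**
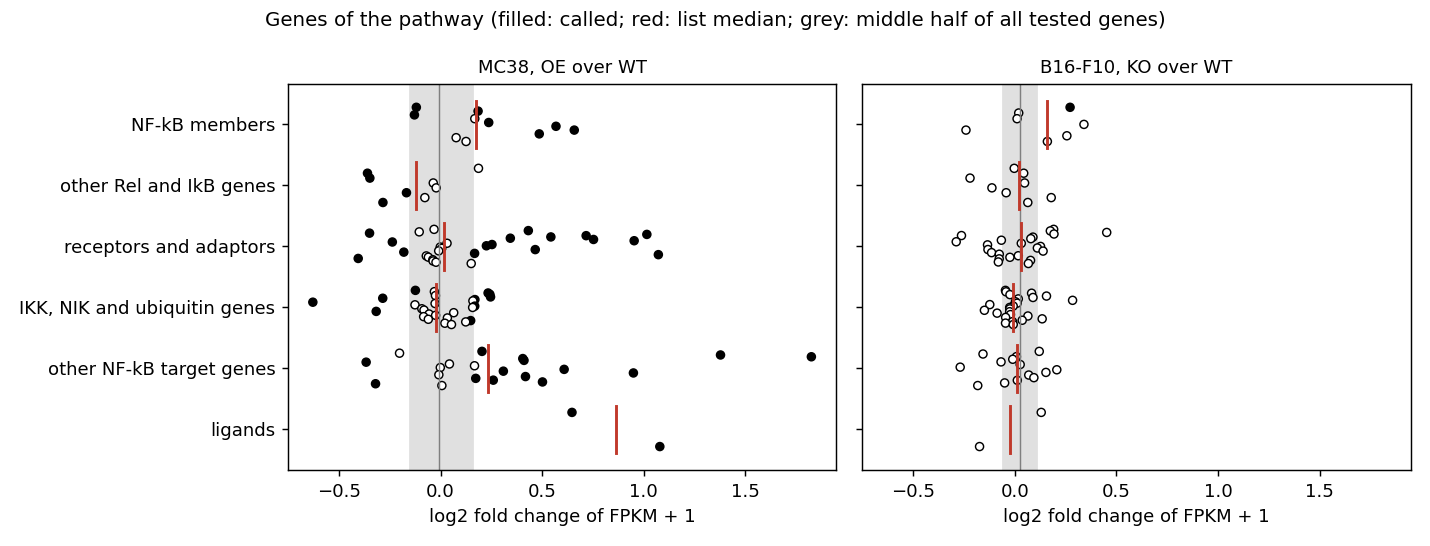
Log2 fold changes of FPKM + 1 of the tested genes in each list, for OE over WT in MC38 (left) and KO over WT in B16-F10 (right); filled points passed, red bars are list medians and the grey band runs from the lower to the upper quartile of all tested genes. In MC38 the medians of the members and of the other targets lie at 0.18 and 0.23, and in B16-F10 the only filled point is Nfkb1.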

How the data were processed

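Polyadenylated RNA had been sequenced with a stranded kit, per the labels' protocols. The authors deposited 1 table per line of FPKM per gene symbol and library, and GRCm39 and DESeq2 are named in the submitters' processing notes. For the aligner, the counter and the annotation, names are not given in the sources used. Columns were matched to samples by library name, with 0 left unmatched. FPKM was used as deposited. Genes averaging at least 1 FPKM in a line were compared on the log2(FPKM + 1) scale in limma 3.58.1 (R 4.3.3), allowing the prior variance to follow expression level. Each line was fitted alone, with p-values adjusted by the Benjamini-Hochberg method over all tested genes and a threshold of 0.05. Members under the filter had two-sided exact permutation tests. Depth came from the spacing of low values in single-transcript genes, using GENCODE M21 lengths, and 81.6 to 85.4% of these values were within 0.1 of a whole number, too few for count models. Replicates of a group differed by 5.16 to 24.8 times counting noise (chi-square per degree of freedom), so none was merged as a repeat deposit, which does not show that they are separate cultures. In simulated data 200 genes per line were changed, with fold changes set on the log2(FPKM + 1) scale. Of those changed 1.5-fold, 91% were recovered in MC38 and 83% in B16-F10, and of those changed 2-fold, 98% in both lines. Recovery was not tested under a split like that among the WT libraries of B16-F10. The share of 83% therefore need not hold for the genes not called in that line. Noise was drawn independently for each gene, and the 200 changed genes are far fewer than the 5107 called in MC38. The shares for MC38 therefore need not hold for its real data either. Members and lists were chosen with earlier results of these data known. The text names all members and Ssbp4, and per list and line up to 2 called genes with the highest and up to 2 with the lowest change, or the 2 most abundant where none was called. Alternatives changed the pseudocount, the filter, the scaling, the variance model, library weights and the replicate block, or dropped single libraries. Krt18, Epcam, Ptprc, Birc2, Irak2, the genes of the receptor paragraph in the closing section and, in B16-F10, Ccl2 and Ccl5 were named after their values were seen. Figures were drawn with matplotlib 3.10.9.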

Additional observations from a re-analysis of the deposited data

Results flagged for a closer look

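Among 39 groups of 4 libraries examined for a value far from the others (10 members and 3 ratios in each of 3 groups), 2 had one, and chance gives about 5%. Nfkbie in KO B16-F10 cells was 4.83 FPKM in library 3, below the other KO libraries at 5.31 to 5.38 FPKM. The Nfkb2 to Nfkb1 ratio in WT MC38 cells was 1.79 in library 2, above the other WT libraries at 1.72 to 1.73. Each value lies within the range seen across all libraries of its line.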

How the results depend on the processing

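In MC38 the directions of all 10 members held under every alternative run, and Tnfaip3, Nfkbie and Birc3 passed in each one in which they were tested, since a minimum mean of 5 FPKM leaves Tnfaip3 out. The count of called members, 7, became 3 with no filter on low values and 4 (Tnfaip3, Nfkbie, Birc3 and Nfkbia) in the fit with a replicate block, and ranged from 3 to 7 when libraries were left out in turn. In B16-F10 the count, 1, became 0 with the block and ranged from 0 to 1 when libraries were left out. All called genes in B16-F10, 243, became 140 with a minimum mean of 0.1 FPKM, 73 with no filter, 776 with estimated library weights and 12 with the block, and ranged from 23 to 414 when libraries were left out; the cause was not tested. In MC38 they were 5107, ranged from 4307 to 5109 when libraries were left out, and were 3906 with the block, with the other alternatives between 4182 and 5463. Members of B16-F10 that did not pass changed sign: Rela was -0.0083 with median-of-ratios scaling and -0.033 with library weights, Nfkb2 was -0.061 with library weights, and when libraries were left out Rela ranged from -0.016 to 0.049 and Nfkb2 from -0.023 to 0.072. The members outside the filter had 0 exact tests under 0.05 in every alternative run. Deviations of same-numbered libraries had correlations of -0.298 to 0.165. With 3 or 4 libraries per group, these values show no pairing by number and cannot exclude it. Where expression is under about 0.1 FPKM, as for Traf1 in B16-F10, values rest on a few fragments.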

Other observations

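The receptor and adaptor list moved both ways in MC38, with 12 genes higher (42.9%), 4 lower (14.3%) and 12 not called of 28 tested. Over all tested genes 23.9% were higher and 23.6% lower. Tnfrsf9, Il1r1 and Irak2, among the 12 higher, met the filter only through the OE libraries. The genes described below were picked after their values were seen. Among those higher, Tlr4, the endotoxin receptor, averaged 6.74 FPKM in OE and 3.00 FPKM in WT (log2 fold change 0.95, SE 0.062), and Tlr3, a receptor for double-stranded RNA, averaged 4.02 FPKM in OE and 1.97 FPKM in WT (0.75, SE 0.075). Il1rl1, the receptor of IL-33, was the most abundant of the receptor list in MC38 at 479 FPKM in OE and 377 FPKM in WT (0.34, SE 0.034). Those lower were Tab2 and Tnfrsf12a, Myd88, the adaptor of most Toll-like receptors, with 15.9 FPKM in OE and 18.9 FPKM in WT (-0.24, SE 0.070, limma adjusted p = 0.0175), and Traf2, an adaptor of TNF receptors, with 17.6 FPKM in OE and 20.2 FPKM in WT (-0.18, SE 0.052, limma adjusted p = 0.0164). Tnfrsf1a, at 35.1 FPKM in OE and 35.9 FPKM in WT, did not pass (adjusted p = 0.568, limma).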
